A study of Mus musculus with 20 samples.

Results

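The 9 genes described here govern when a developing T cell leaves the thymus and where it settles: the chemokine receptor genes Ccr9, Ccr7, Cxcr3 and Cxcr4, the integrin genes Itgae, Itgb7 and Itga4, the sphingosine-1-phosphate receptor gene S1pr1, and Klf2. They were taken by name, by a rule that used no measured value but was set with earlier results of these data known, and all 9 were found among the 25246 genes of the count tables. They were followed through single thymic precursors of intestinal intraepithelial lymphocytes (IELPs), the CD4-CD8- thymocytes with an alpha-beta T cell receptor that later populate the gut epithelium. Transcripts were counted by CEL-Seq2, which tags the 3' end of each molecule with a molecular identifier (UMI), in 20 libraries of 96 sorted cells each.

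The study compared 3 genotypes, each treated here as 1 mouse, since the labels tie no library to an animal, and each carrying TBGR, a reporter that marks T-bet expression with ZsGreen. The TBGR mouse was otherwise wild type and 4 weeks old. The TBGR C-mycfl/fl mouse, with loxP-flanked but intact C-myc alleles, and the TBGR C-mycD/DCd4 mouse, in which Cre driven by Cd4 deletes them in T cells, were both 2 weeks old. Cells were sorted by CD122, the beta chain of the interleukin-15 receptor, and by T-bet. Cells without either are called CD122- below (CD122-T-bet- in the labels) and cells with CD122 alone CD122+ (CD122+T-bet-). Those that also carried T-bet at an intermediate or a high level are called T-bet int and T-bet high, and were sorted from the TBGR and fl/fl mice only among the libraries used here. The series' design text describes the sorted thymocytes as NK1.1+, whereas the methods describe NK1.1- cells.

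Some background helps to place the genes. A maturing thymocyte switches on the transcription factor KLF2, which drives S1pr1, and S1PR1 then senses the high sphingosine-1-phosphate of the blood and draws the cell out of the thymus. CCR7 and CXCR4 position thymocytes inside the organ, CCR9 responds to CCL25 of thymic and small-intestinal epithelium, and CXCR3 responds to interferon-inducible chemokines and is a well known target of T-bet. Integrin beta7, encoded by Itgb7, pairs with alpha4, encoded by Itga4, to bind MAdCAM-1 on gut vessels, or with alphaE (CD103), encoded by Itgae, to bind E-cadherin on epithelial cells.

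Of 1920 sorted wells, 1413 (73.6%) held at least 2000 transcripts without mitochondrial and spike-in RNA and were kept. These were 174, 186, 171 and 147 cells of the TBGR mouse, in the order CD122-, CD122+, T-bet int and T-bet high. The fl/fl mouse gave 120, 122, 116 and 112 cells in that order, and the D/DCd4 mouse gave 128 CD122- and 137 CD122+ cells. Libraries held 48 to 94 kept cells and 233454 to 775264 transcripts, with a median of 3805 to 7076 per cell. In TBGR and D/DCd4 each library held 1 population, so that population and library cannot be told apart there. Each fl/fl library held both T-bet- or both T-bet+ populations. Among fl/fl libraries, library 4 stood apart from the other 3 in the 3 CD122+ sorts, T-bet int and T-bet high included, with a chi-square per degree of freedom of 8.17 to 30.4 against them and 1.84 to 3.64 among them. In CD122- cells libraries 2 and 4 both stood apart from libraries 1 and 3, at 14.5 to 27.5, whereas libraries 1 and 3 differed by 4.57 and libraries 2 and 4 by 8.23. The sort matched its markers. Il2rb, which encodes CD122, had 2.61 to 9.88 counts per 1000000 transcripts (CPM) in the 3 CD122- populations and 222 to 515 CPM in the other 7. Tbx21, which encodes T-bet, reached 48.0 and 165 CPM in T-bet int and in T-bet high cells of TBGR, and 18.8 and 60.03 CPM in those of fl/fl. By library, Tbx21 in TBGR was at 40.9 and 55.3 CPM in T-bet int and at 214 and 64.3 CPM in T-bet high cells. The second T-bet high library was thus close to the T-bet int libraries. These T-bet high libraries, with 92 and 55 kept cells, differed by a chi-square per degree of freedom of 7.59.

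Levels are given as CPM, from the transcripts of all kept cells of a population, and fold changes as log2 ratios of CPM with an exact 95% interval that covers counting error only. With each genotype treated as 1 mouse, no test between conditions was possible. A gene was called, or past the 2-fold rule, when its log2 ratio and that ratio less the median of all genes tested were both at least 1 in size and the libraries of both groups did not overlap. Where 1 library held both groups, the ratio had to have the same sign in all 4 libraries. Genes with at least 50 transcripts in either group were tested, so a gene could enter through 1 group alone. Libraries are numbered within a population, and their spread is technical.

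The promoters of Ccr9, Cxcr3 and Itga4 are shown because the results turn on them, Ccr9 at the gain of CD122, Cxcr3 at the gain of T-bet and Itga4 between genotypes. The RefSeq promoter table used holds 6 of the 9 genes. Ccr9 lies on chromosome 9, Cxcr3 on chromosome X and Itga4 on chromosome 2 (GRCm38). The sequences are RefSeq's for GRCm38.p6, 5' to 3' on the gene's strand, from 250 bases before the transcription start up to the start or to the first base in an annotated exon of the gene. Those of Ccr9 at chr9:123766961-123767168 (plus strand), Cxcr3 at chrX:101734270-101734397 (minus strand) and Itga4 at chr2:79255176-79255425 (plus strand) read as follows, with matches to the 5 motifs searched in capitals.
Ccr9: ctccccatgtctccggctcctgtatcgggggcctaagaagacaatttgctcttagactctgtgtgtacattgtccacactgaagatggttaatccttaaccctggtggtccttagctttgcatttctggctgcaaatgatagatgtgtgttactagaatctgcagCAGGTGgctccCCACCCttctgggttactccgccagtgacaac
Cxcr3: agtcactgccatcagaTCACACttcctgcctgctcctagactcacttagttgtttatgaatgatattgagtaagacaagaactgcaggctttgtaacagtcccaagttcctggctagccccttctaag
Itga4: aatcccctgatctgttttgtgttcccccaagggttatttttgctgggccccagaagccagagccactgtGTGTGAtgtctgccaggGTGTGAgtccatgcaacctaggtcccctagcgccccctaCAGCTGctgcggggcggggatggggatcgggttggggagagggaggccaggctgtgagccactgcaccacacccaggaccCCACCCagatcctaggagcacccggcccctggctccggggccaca

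The motifs, searched on both strands over all 250 bases, were TCACAC (a T-box half-site), CAGNTG (an E-box), CCACCC (bound by KLF factors), TGTTTAC (a forkhead site) and CACGTG (a Myc E-box, which does not overlap the other 4). Cxcr3 held TCACAC 234 bases before its start, and Itga4 held it on the minus strand at 181 and 164 bases, a match found in 12.3% of all 32851 promoters of that length. Ccr9 had an E-box 85 and a CCACCC box 74 bases before its start. Itga4 had an E-box 125 and a CCACCC box 45 bases before its start, and Cxcr3 had an E-box 116 bases before its start, in the exonic part that is not shown. E-boxes stood in 44.8% and CCACCC boxes in 28.1% of all promoters. TGTTTAC, found in 3.17%, and CACGTG, found in 6.02%, were in none of the 6 promoters. These are matches of letters, not binding sites.

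**Figure D1:**
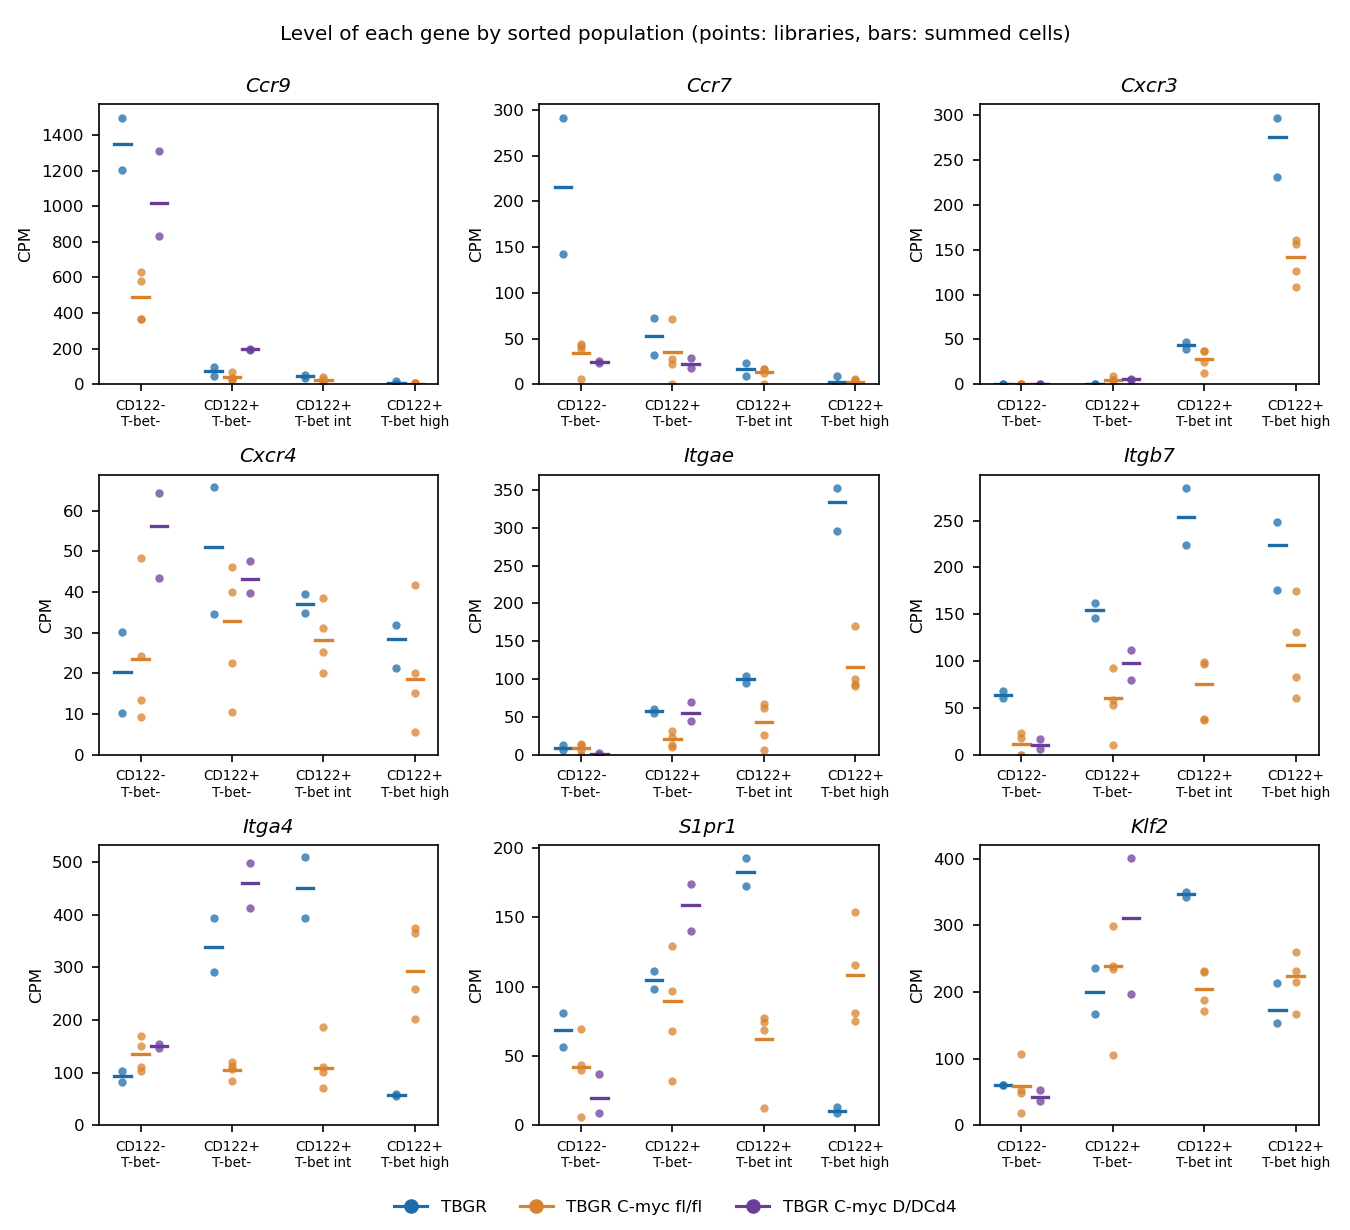
Levels of the 9 genes in CPM on a linear axis, by sorted population and mouse. Each point is a library. Ccr9 is highest in CD122- cells of all 3 mice, at 366 to 1496 CPM, and Cxcr3 in T-bet high cells of the 2 mice that have them, at 108 to 297 CPM.

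The first comparison asked what distinguishes CD122+ from CD122- cells, the step at which the precursors gain the interleukin-15 receptor chain. Ccr9 and Ccr7 fell and Itgae, Itga4 and Klf2 rose in the TBGR mouse, which made 5 of the 8 members tested. Among all 4975 genes tested, 9.81% were past the rule (7.36% higher and 2.45% lower). The median log2 ratio was 1.28 for the members tested and 0.33 for all genes.

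Ccr9 had 1203 and 1496 CPM in the 2 CD122- libraries and 95.5 and 46.1 CPM in the 2 CD122+ libraries of TBGR. The groups lay far apart, and the level was 18.6-fold lower in CD122+ cells, a log2 ratio of -4.22 (-4.53 to -3.94). Ccr7 had 291 and 143 CPM against 72.2 and 31.7 CPM, 4.06-fold lower with a log2 ratio of -2.02 (-2.42 to -1.64). For both receptors every CD122- library was above every CD122+ library.

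The integrin genes moved the other way in TBGR. Itga4 had 103 and 82.6 CPM in CD122- and 292 and 394 CPM in CD122+ cells, a log2 ratio of 1.87 (1.55 to 2.21). Itgae had 12.4 and 6.04 against 60.6 and 54.8 CPM, a log2 ratio of 2.59 (1.66 to 3.83). Itgb7, the shared beta chain, had 68.2 and 60.4 against 163 and 146 CPM, a log2 ratio of 1.26 (0.86 to 1.69) whose libraries did not overlap but which was 0.93 after the median of all genes was subtracted, short of the rule.

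Of the exit genes, Klf2 had 59.95 and 60.4 CPM in CD122- libraries and 166 and 236 CPM in CD122+ libraries of TBGR, a log2 ratio of 1.72 (1.32 to 2.16). S1pr1, its target, had 80.6 and 56.4 against 111 and 98.0 CPM. The libraries were apart, but the log2 ratio of 0.61 (0.19 to 1.05) was under the rule. Cxcr4 had 10.3 and 30.2 against 65.8 and 34.6 CPM, a log2 ratio of 1.297 (0.60 to 2.11), or 0.97 less the median. Cxcr3 had no transcript in either population, which allows up to 3.06 CPM in CD122- and 2.04 CPM in CD122+ cells.

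The fl/fl mouse gave the same step within each of 4 libraries. There 2 of the 4 members tested were past the rule, Ccr9 lower and Klf2 higher, against 6.85% of 2176 genes (4.5% higher and 2.34% lower). The median log2 ratio over all genes was 0.58 and over the members tested 0.36. Ccr9 had 582, 628, 369 and 366 CPM in CD122- cells and 27.7, 35.6, 67.7 and 21.2 CPM in CD122+ cells. It was lower in all 4 libraries, with within-library log2 ratios of -4.29, -4.06, -2.41 and -3.80 and a summed ratio of -3.56 (-4.16 to -3.06), or -3.33 without library 2.

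Klf2 in the same libraries had 48.5, 107, 53.4 and 18.3 CPM in CD122- and 235, 298, 239 and 106 CPM in CD122+ cells. It was higher in every library, with a summed log2 ratio of 2.00 (1.55 to 2.50) and of 1.88 without library 4 or 2.33 without library 2. Its call was lost where cells with a Trdc transcript, or cells with markers of CD4+CD8+ thymocytes, were left out, at log2 ratios of 1.87 and 1.62. S1pr1 was also higher within all 4 libraries, with a summed log2 ratio of 1.09 (0.48 to 1.74), or 0.50 less the median. Itga4, in contrast with TBGR, had 170, 112, 151 and 104 CPM against 120, 84.6, 113 and 106 CPM, populations that overlapped with a log2 ratio of -0.36 (-0.80 to 0.07). The 29 CD122- cells with a Trdc transcript had 227 CPM of Itga4. Without cells holding Trdc, Itga4 was at 92.6 CPM in CD122- and 105 CPM in CD122+ cells, so the lower level in CD122+ cells was not seen there. Itgb7, with 9 and 46 transcripts, was under the 50 needed, as were Itgae, Ccr7, Cxcr3 and Cxcr4. Ccr7, with 28 and 27 transcripts, was at 34.6 CPM in CD122- and 35.6 CPM in CD122+ cells. Its log2 ratio of 0.05 (-0.77 to 0.86) did not show the fall seen in TBGR.

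In the D/DCd4 mouse 5 of 5 members tested were past the rule at this step, where 22.9% of 2587 genes were (14.0% higher and 8.85% lower). Klf2, S1pr1 and Itgb7 reached the 50 transcripts needed only in CD122+ cells, where they were higher, so the filter favoured members that differed. Ccr9 had 1308 and 834 CPM in CD122- and 200 and 194 CPM in CD122+ cells, a log2 ratio of -2.37 (-2.64 to -2.11). Klf2 had 53.5 and 36.4 against 197 and 401 CPM, a log2 ratio of 2.83 (2.32 to 3.43). S1pr1 had 36.8 and 8.57 against 140 and 174 CPM, a log2 ratio of 2.98 (2.24 to 3.90).

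Both partners of the alpha4-beta7 integrin rose at that step in D/DCd4. Itga4 had 147 and 154 against 413 and 498 CPM, a log2 ratio of 1.5995 (1.29 to 1.92). Itgb7 had 16.7 and 6.43 against 79.4 and 112 CPM, a log2 ratio of 3.15 (2.167 to 4.49). In each of these genes the CD122+ libraries lay above the CD122- ones. Without library 1 of the CD122+ cells there were 4 members past the rule, Itgb7 having under 50 transcripts, and without library 2 there were 3, since Itgb7 and S1pr1 both had fewer. Itgae, with 1 transcript in CD122- and 40 in CD122+ cells, was not tested. Ccr7, Cxcr4 and Cxcr3 also had too few. Ccr7 was at 24.8 CPM in CD122- and 22.3 CPM in CD122+ cells, a log2 ratio of -0.15 (-1.21 to 0.88). Cxcr4 was at 56.2 against 43.3 CPM, a log2 ratio of -0.37 (-1.09 to 0.32).

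Ccr9 and Klf2 were thus past the rule in opposite directions at this step in all 3 mice. Markers of other thymocytes also differed between these populations. The summed level of 9 markers of CD4+CD8+ thymocytes was 673 to 792 CPM in CD122- and 117 to 159 CPM in CD122+ libraries of TBGR. It was 251 to 480 against 10.6 to 64.5 CPM in fl/fl and 718 to 883 against 132 to 140 CPM in D/DCd4, with all 9 detected in each CD122- population, and Rag2 at 0 in each CD122+ population. The 5 markers of naive or mature single positive T cells summed to 3041 to 4110 against 907 to 1069 CPM in TBGR. They summed to 628 to 1357 against 255 to 747 CPM in fl/fl and to 1610 to 1656 against 734 to 831 CPM in D/DCd4. The fl/fl ranges overlapped, and there Satb1 was at 544 against 165 CPM but Lef1 at 249 against 355 CPM, and Il7r and Dapl1 were also slightly higher in CD122+ cells. Without the 142 cells holding Rag1, Rag2, Dntt or Ptcra, or both Cd4 and Cd8a, the log2 ratio of Ccr9 was -4.36 in TBGR, -3.77 in fl/fl and -2.88 in D/DCd4, each at least as large as with them.

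**Figure D2:**
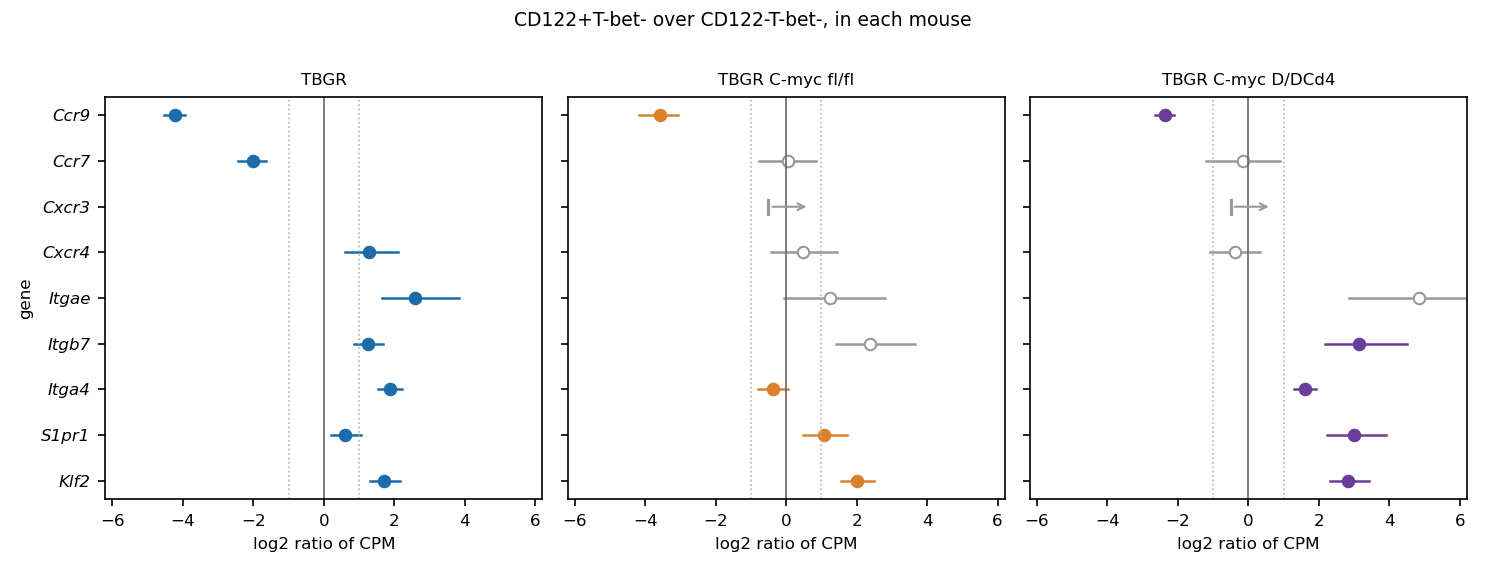
Log2 ratio of CPM of CD122+ over CD122- cells for the 9 genes in each mouse, with exact 95% intervals. Filled points had at least 50 transcripts in either group, open grey points did not, dotted lines mark a 2-fold difference and an arrow an open-ended interval. The interval of Itgae in D/DCd4 runs past the axis. Ccr9 lies left of the lines in all 3 mice, at -4.22, -3.56 and -2.37, and Klf2 right of them, at 1.72, 2.00 and 2.83.

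The neighbouring genes of the same pathways were read from 4 lists, of other chemokine receptors, other integrin subunits, egress and recirculation, and epithelial residence with the IEL surface. The residence list is given first, for the CD122 step. Among all genes tested there, 7.36% were higher in TBGR, 4.5% in fl/fl and 14.0% in D/DCd4. In TBGR 4 of 9 tested rose, namely Amica1 (JAML, a junctional adhesion receptor), which was at least 24.2-fold higher against 3 counts, Cd160 at a log2 ratio of 3.99, Rgs1 at 3.35 and Ahr at 1.88. In fl/fl 3 of 4 rose, Cd160 at 3.57, Amica1 at 3.43 and Rgs2 at 1.91. In D/DCd4 6 of 7 rose, led by Amica1 at 4.80, Cd160 at 3.70, Ahr at 2.54 and Runx3 at 2.39. None of this list fell in any of the 3 mice. The list's median log2 ratio was 1.16, 2.67 and 2.39 in TBGR, fl/fl and D/DCd4, against 0.33, 0.58 and 0.05 for all genes.

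Of the other chemokine receptors, 2 of 3 tested rose in TBGR at the CD122 step, Cxcr6 at a log2 ratio of 2.70 and Ccr2 at 2.22, and none had 50 transcripts in fl/fl or D/DCd4. Among further integrin subunits 0 of 4 were past the rule in TBGR, 0 of 3 in fl/fl and 1 of 4 in D/DCd4, Itgb3 at 2.69. In the egress and recirculation list 0 of 21 tested rose in TBGR. In fl/fl S1pr4, a further sphingosine-1-phosphate receptor, rose at 1.95, as 1 of 16, and in D/DCd4 Foxo1, Selplg, Cd69 and Mob1a rose, at 2.10, 1.31, 1.07 and 1.06, as 4 of 18. The median log2 ratio of the egress list was 0.33, 0.53 and 0.53 in TBGR, fl/fl and D/DCd4, at or near that of all genes in the first 2 mice, and that of the integrin subunits was -0.32, 0.65 and 0.59.

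The second step, from CD122+ to T-bet int cells, is where T-bet appears. In TBGR 2 of 9 members were past the rule, Cxcr3 higher and Ccr7 lower, against 6.62% of 5195 genes (2.62% higher and 4.0% lower). Cxcr3 had 0 transcripts in both CD122+ libraries and 47.0 and 39.5 CPM in the T-bet int libraries, at least 21.2-fold higher against 3 counts over the group. Ccr7 had 72.2 and 31.7 against 22.7 and 9.49 CPM, 3.21-fold lower with a log2 ratio of -1.68 (-2.48 to -0.998). Neither call held in every subset of libraries: without library 1 of the CD122+ cells Ccr7 was lost, and without either T-bet int library Cxcr3 had under 50 transcripts, which left 1 member in each case.

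The other 7 members were under the rule at this step in TBGR. Klf2 had 166 and 236 against 350 and 343 CPM (log2 ratio 0.80), S1pr1 111 and 98.0 against 192.4 and 172.3 CPM (0.80), Itgae 60.6 and 54.8 against 95.5 and 104 CPM (0.78), and Itgb7 163 and 146 against 224 and 285 CPM (0.71). In each of these 4 the T-bet int libraries were above the CD122+ ones. Itga4 had a log2 ratio of 0.41, and Ccr9 and Cxcr4, whose libraries overlapped, -0.66 and -0.45.

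In fl/fl 0 of 4 members tested were past the rule at this step, against 0.443% of 2483 genes (0.362% higher and 0.0805% lower). Klf2 had 106 to 298 CPM in CD122+ and 171 to 232 CPM in T-bet int libraries, Itga4 84.6 to 120 and 70.3 to 187 CPM, and S1pr1 31.8 to 129 and 12.7 to 77.0 CPM, so that the populations overlapped. Itgb7, with 10.6 to 92.2 and 37.3 to 98.7 CPM, overlapped too. Cxcr3 had 9.22, 4.45, 4.51 and 0 CPM against 12.9, 36.8, 37.3 and 25.3 CPM. All T-bet int libraries were above the CD122+ ones, but 24 transcripts against 4 were too few for the filter, and its log2 ratio was 2.28 (0.88 to 4.41).

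From the 4 lists, Cxcr6 (1 of 4 chemokine receptors), Itgb1 at 1.25 (1 of 4 integrin subunits), Ccl5 at 4.93 (1 of 22 egress genes) and Amica1 at 1.09 (1 of 9 residence genes) rose in TBGR at the second step. Itgb3 fell at -1.02 and Arhgef1 at -1.01. Among all genes tested, 2.62% were higher and 4.0% lower. The medians of the 4 lists were 0.71, 0.55, 0.23 and 0.17 in that order, against 0.02 for all genes. In fl/fl none of the 27 list genes tested at this step was past the rule, where 0.443% of all genes were. Their medians were 0.58, 0.03, 0.28 and -0.07, against 0.06 for all genes.

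The third step, from T-bet int to T-bet high cells, held the widest contrast between mice. In TBGR 5 of 7 members tested were past the rule, Cxcr3 and Itgae higher and Ccr9, Itga4 and S1pr1 lower, against 14.0% of 4473 genes (5.61% higher and 8.34% lower). In fl/fl 3 of 6 were past it, Cxcr3, Itgae and Itga4, all higher, against 4.56% of 2478 genes (2.54% higher and 2.02% lower). The median over all genes was -0.18 in TBGR and -0.22 in fl/fl, and over the members tested -0.998 and 1.10.

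Cxcr3 had 47.0 and 39.5 CPM in T-bet int and 297 and 231 CPM in T-bet high libraries of TBGR, a log2 ratio of 2.66 (2.23 to 3.12). The fl/fl libraries had 12.9, 36.8, 37.3 and 25.3 against 156, 160, 127 and 108 CPM, a log2 ratio of 2.30 (1.67 to 3.03). Every T-bet high library was above every T-bet int library in both mice.

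Itgae, the alphaE chain, had 95.5 and 104 against 352 and 296 CPM in TBGR, a log2 ratio of 1.74 (1.42 to 2.06). The fl/fl mouse had 25.7, 67.0, 62.2 and 6.33 against 90.7, 170, 93.5 and 100 CPM, a log2 ratio of 1.40 (0.83 to 2.01). It was higher within each fl/fl library and the populations did not overlap. Without library 2 of fl/fl its call was lost, which left 2 members past the rule.

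Itga4, the alpha4 chain, fell in TBGR and rose in fl/fl. In TBGR it had 394 and 509 CPM in T-bet int and 59.4 and 55.7 CPM in T-bet high libraries, 7.65-fold lower with a log2 ratio of -2.94 (-3.45 to -2.49). In the fl/fl mouse the values were 112, 70.3, 187 and 101 CPM against 202, 366, 259 and 376 CPM, a log2 ratio of 1.42 (1.06 to 1.79) that was positive within each library, at 0.84, 2.36, 0.46 and 1.86. The T-bet high libraries were below both T-bet int libraries in TBGR and above all of them in fl/fl.

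S1pr1, the exit receptor, went the same way as Itga4 in TBGR. It had 192.4 and 172.3 CPM against 8.49 and 12.9 CPM, 17.2-fold lower with a log2 ratio of -4.10 (-5.53 to -3.14). Those of fl/fl were 68.6, 77.0, 74.7 and 12.7 against 80.6, 115, 154 and 75.1 CPM, a log2 ratio of 0.80 (0.28 to 1.34), under the rule but positive within each library, from 0.23 to 2.32.

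Klf2, which drives S1pr1, had 350 and 343 against 153 and 214 CPM in TBGR, a log2 ratio of -0.998 (-1.30 to -0.71) that was -0.82 less the median and so not called. In fl/fl it had 171 to 232 against 167 to 261 CPM, a log2 ratio of 0.13 (-0.19 to 0.45), with overlapping populations. Itgb7 had 224 and 285 against 248 and 176 CPM in TBGR, a log2 ratio of -0.18 (-0.46 to 0.10), and 0.64 (0.15 to 1.13) in fl/fl. Ccr9 had 53.0 and 37.9 against 4.24 and 17.1 CPM in TBGR, a log2 ratio of -2.32 (-3.93 to -1.22). Its call rested on 6 transcripts in T-bet high cells and was lost without either T-bet int library or without library 1 of the T-bet high cells. Without library 2 of the T-bet high cells Klf2 was called too, for 6 members in all.

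In the egress list Cd44, Il7r and Arhgef1 rose in TBGR at 2.50, 1.89 and 1.21, as 3 of 21 tested, and Foxo1 fell at -1.21. In fl/fl, where 19 were tested, Ccl5 rose at 3.65, Cd44 at 1.85 and S1pr4 at 1.03. Cxcr6 rose in both mice, at 1.62 and 1.54, and Rgs1 in both, at 2.10 and 1.97. Ccr2 and Itgb1 rose in fl/fl at 1.12 and 1.02. In TBGR Gpr183 rose at 2.58, and so did Cdh1, from 1 transcript in T-bet int cells, whereas Ccr10, Itgb3 at -1.40 and Cd160 at -1.29 fell. Together 2 of 4 chemokine receptors, 1 of 4 integrin subunits and 4 of 10 residence genes were past the rule in TBGR, and 2 of 3, 1 of 3 and 1 of 6 in fl/fl. Among all genes tested, 14.0% were past it in TBGR (5.61% higher) and 4.56% in fl/fl (2.54% higher). The medians of the chemokine receptor, integrin, egress and residence lists were 0.90, 0.71, 0.12 and 0.47 in TBGR and 1.12, 0.71, 0.01 and 0.34 in fl/fl. Those of all genes were -0.18 and -0.22.

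The T-bet high cells of both mice also differed in Klrb1c, which encodes NK1.1 and was chosen for this comparison after its values were seen. In TBGR 124 of 147 T-bet high cells (84.4%) and 29 of 171 T-bet int cells (17.0%) held a Klrb1c transcript. In fl/fl 27 of 112 (24.1%) and 5 of 116 (4.31%) did. The 4 NKT cell markers, of which Klrb1c is a member, summed to 527 to 683 CPM by library in T-bet high cells of TBGR and to 17.8 to 142 CPM in the other 9 populations. Klrb1c alone made up 563 CPM in T-bet high cells of TBGR. Zbtb16, the defining factor of NKT cells, was at 28.4 CPM there and at 46.4 CPM in T-bet int cells, and Trav11 had 1 transcript there and 0 in every other population. Without cells holding Klrb1c, the log2 ratios in TBGR were -1.57 for Itga4, -3.12 for S1pr1, 1.79 for Itgae, 2.40 for Cxcr3 and -1.76 for Ccr9. Of these Itga4, S1pr1 and Itgae, 3 members, were still past the rule. In fl/fl Itga4 was then at 1.35 and S1pr1 at 0.81. Without these cells Itga4 and S1pr1 thus kept opposite signs between the mice, with smaller falls in TBGR. Only 23 T-bet high cells of TBGR remained, and S1pr1 had 2 transcripts in them. The mice also differed in age and in whether a library held 1 or 2 populations, which cannot be told apart from genotype.

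**Figure D3:**
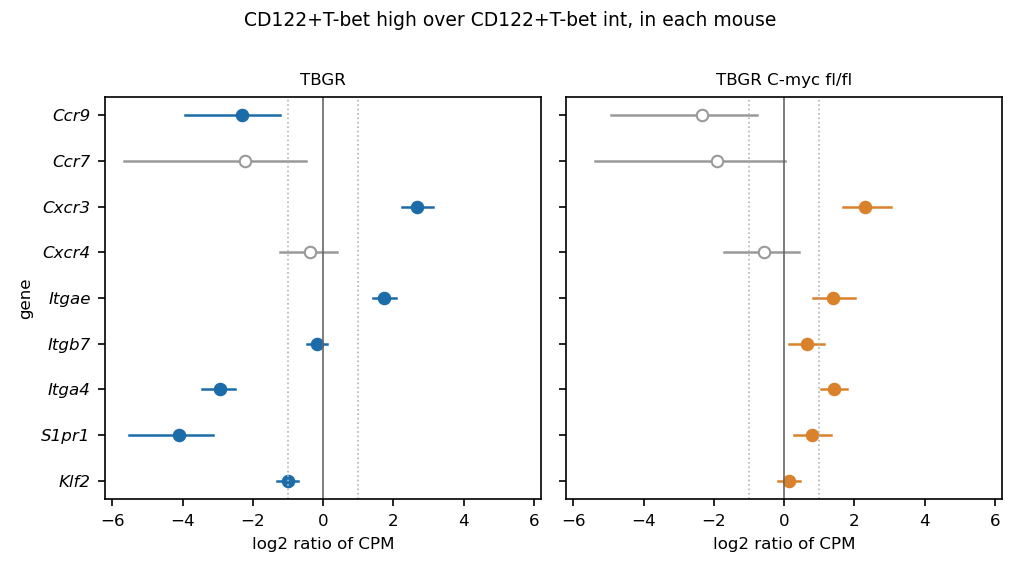
Log2 ratio of CPM of T-bet high over T-bet int cells for the 9 genes in TBGR and TBGR C-mycfl/fl, with exact 95% intervals. Filled points had at least 50 transcripts in either group, open grey points did not, and dotted lines mark a 2-fold difference. Cxcr3 and Itgae lie to the right in both mice, and Itga4 lies at -2.94 in TBGR and 1.42 in fl/fl.

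The balance between both alpha chains was expressed as the share of Itgae among the transcripts of Itgae and Itga4, a measure chosen after the values were seen. In TBGR it was 9.0%, 14.6% and 18.1% in the first 3 populations and 85.1% (exact binomial interval 80.4 to 89.1%) in T-bet high cells, with 84.1% and 85.6% in the 2 libraries. In fl/fl it was 5.98%, 16.7%, 28.5% and 28.3% (23.2 to 33.9%), with 21.1 to 31.8% among the T-bet high libraries. In D/DCd4 it was 0.855% in CD122- and 10.8% in CD122+ cells. Summed over libraries, the share was below 30% in every population except T-bet high cells of TBGR, although T-bet int libraries of fl/fl ranged from 5.88% to 48.8%. Since 3' tags count molecules, the share needs no correction for transcript length.

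**Figure D4:**
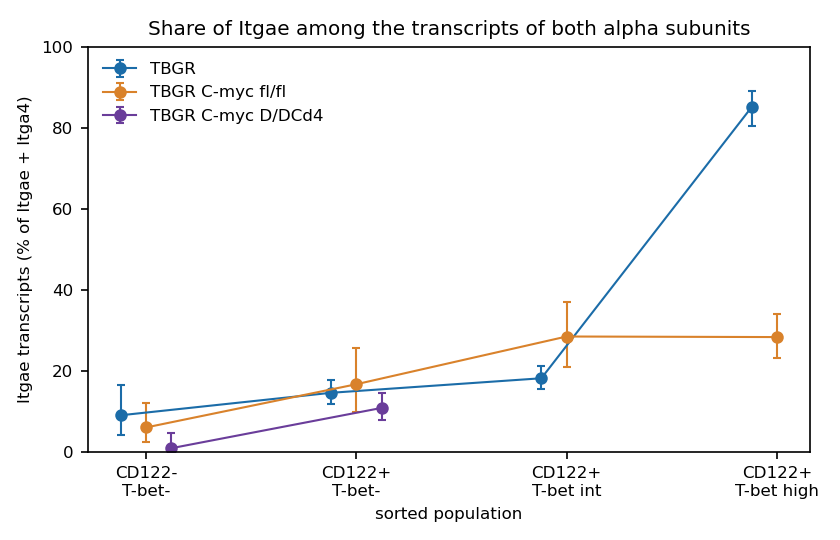
Share of Itgae among the transcripts of Itgae and Itga4, in percent, by population and mouse, with exact 95% binomial intervals. T-bet high cells of TBGR stand at 85.1%, whereas the same population of fl/fl stands at 28.3%.

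The comparison of D/DCd4 with fl/fl at the same age asked what deletion of C-myc in T cells changes. Its target was measured first. Myc had 73.8, 125, 135 and 10.6 CPM in the 4 fl/fl libraries of CD122+ cells and 44.5 and 9.96 CPM in the D/DCd4 libraries, a log2 ratio of -1.95 (-2.81 to -1.22). The libraries overlapped through library 4 of fl/fl, so Myc was not past the rule. In CD122- cells Myc had 63.0, 14.0, 62.3 and 24.4 against 16.7 and 30.01 CPM, which overlapped. Whether the 3' tag of Myc lies in the deleted part is not given in the sources used here, so these values check the deletion only weakly.

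In CD122- cells 0 of 2 members tested were past the rule between D/DCd4 and fl/fl, against 4.46% of 2175 genes (3.86% higher and 0.598% lower). Ccr9 had 1308 and 834 CPM in D/DCd4 and 582, 628, 369 and 366 CPM in fl/fl. Both D/DCd4 libraries were above all 4 of fl/fl, with a log2 ratio of 1.05 (0.88 to 1.23), but the median over all genes was 0.49, which left 0.56. Without library 2 of the D/DCd4 cells Ccr9 was called. It was called as well without cells holding a transcript of Trdc, with 1281 CPM in D/DCd4 against 351 CPM in fl/fl and a log2 ratio of 1.87. Itga4 had 147 and 154 against 104 to 170 CPM, a log2 ratio of 0.16 (-0.23 to 0.55).

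In CD122+ cells 2 of 5 members tested were past the rule, Ccr9 and Itga4, both higher in D/DCd4, where 22.4% of 2627 genes were (13.0% higher and 9.4% lower). Itga4 had 413 and 498 CPM in D/DCd4 and 120, 84.6, 113 and 106 CPM in fl/fl, a log2 ratio of 2.12 (1.77 to 2.50). The libraries lay well apart, and the ratio was 2.12 also without fl/fl library 4. Ccr9 had 200 and 194 CPM against 27.7, 35.6, 67.7 and 21.2 CPM, a log2 ratio of 2.25 (1.70 to 2.88), and 2.15 without fl/fl library 4. S1pr1 had 140 and 174 against 96.8, 129, 67.7 and 31.8 CPM, apart but with a log2 ratio of 0.82 (0.38 to 1.28). Itgb7, at 79.4 and 112 against 10.6 to 92.2 CPM, and Klf2, at 197 and 401 against 106 to 298 CPM, overlapped, with log2 ratios of 0.68 (0.13 to 1.26) and 0.38 (0.09 to 0.67). The TBGR mouse, at 4 weeks, had 292 and 394 CPM of Itga4 and 95.5 and 46.1 CPM of Ccr9 in these cells.

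Both differences were then read in single cells. The tenth of CD122+ cells richest in Ccr9 held 93.6% of its transcripts in D/DCd4 and 93.5% in fl/fl, and for Itga4 the shares were 34.2% and 57.5%. Cells with a transcript of Trdc, the constant segment of the delta T cell receptor chain, made up 23 of 137 (16.8%) D/DCd4 and 5 of 122 (4.10%) fl/fl cells of this population. Ccr9 was at 730 CPM in the 23 and at 41.4 CPM in the other 114 D/DCd4 cells, and at 40.5 CPM in the 5 and 40.9 CPM in the other 117 fl/fl cells. Levels in the 5 fl/fl cells, of Itga4 below as well, rest on very few transcripts. They cannot be set against those of the 23 cells. Without cells holding Trdc, the log2 ratio of Ccr9 between the mice was 0.02 and that of Itga4 2.12. Itga4 was at 470 CPM in D/DCd4 cells with Trdc and 458 CPM in those without, against 122 and 105 CPM in fl/fl. In D/DCd4 the fall of Ccr9 from CD122- to CD122+ cells was -4.92 without these cells. Trdc itself had 346 and 212 CPM in CD122- and CD122+ cells of D/DCd4, 139 and 9.24 CPM in fl/fl and 87.7 and 65.4 CPM in TBGR. Of CD122- cells, 26 of 174 (14.9%) in TBGR, 29 of 120 (24.2%) in fl/fl and 59 of 128 (46.1%) in D/DCd4 held Trdc. S1pr1 was at 5.41, 3.85 and 16.8 CPM in these, in that order, each from few transcripts. Among cells without Trdc, S1pr1 in CD122- and then CD122+ cells was at 83.0 and 99.5 CPM in TBGR. It was at 59.9 and 91.4 CPM in fl/fl and at 22.9 and 148 CPM in D/DCd4. The summed level of the gamma delta list, of which 5 of 6 genes were in the tables, was 907 to 1093 CPM in D/DCd4 libraries and 173 to 1139 CPM in the T-bet- populations of fl/fl. It was 279 to 847 CPM in the T-bet- and 849 to 1513 CPM in the T-bet+ populations of TBGR, and 250.3 to 709 CPM in the T-bet+ populations of fl/fl. In T-bet int and then T-bet high cells of TBGR, Trdc was at 9.28 and 0 CPM and Sox13 at 2.32 and 0 CPM, while Tcrg-C1 was at 509.9 and 667 CPM and Tcrg-C4 at 523 and 669.7 CPM.

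**Figure D5:**
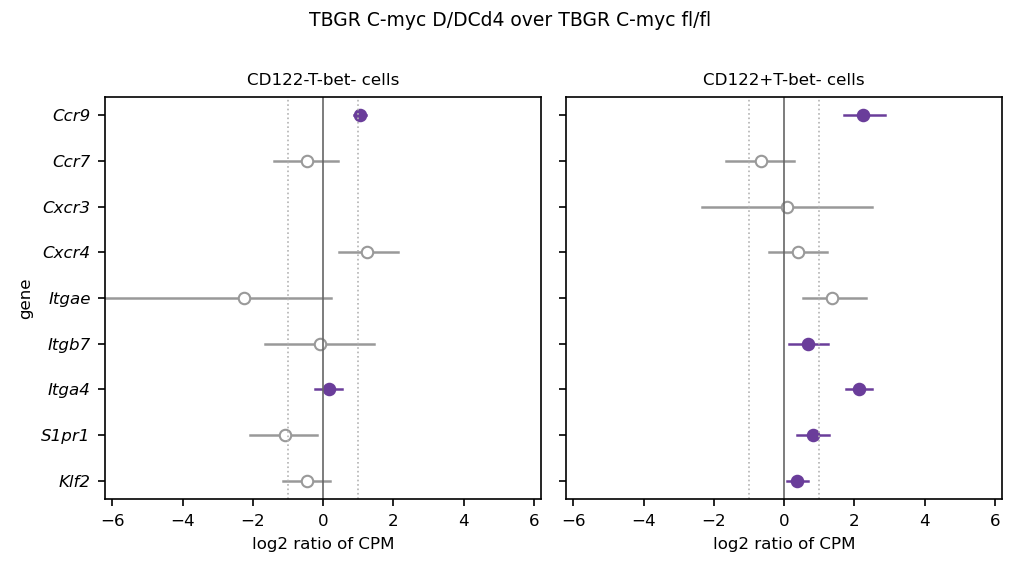
Log2 ratio of CPM of TBGR C-mycD/DCd4 over TBGR C-mycfl/fl for the 9 genes in CD122- and CD122+ cells, with exact 95% intervals. Filled points had at least 50 transcripts in either group, open grey points did not, and dotted lines mark a 2-fold difference. The interval of Itgae in CD122- cells runs past the axis. In CD122+ cells Ccr9 and Itga4 lie at 2.25 and 2.12.

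From the lists, Cd69 (which retains cells by removing S1PR1 from the surface) was higher in D/DCd4 in both populations, at log2 ratios of 1.61 and 1.90, as 1 of 18 and, with Klf3 at 1.81, 2 of 19 egress genes. Among all genes tested, 3.86% were higher in CD122- and 13.0% in CD122+ cells, so the egress counts were near these shares. Of the residence genes 5 of 7 were higher in CD122+ cells, with Ahr at 2.04, Cd96 at 2.03, Tgfbr2 at 1.76 and Amica1 at 1.45 the largest, and 0 of 1 in CD122- cells. Itgb3 was the 1 of 4 integrin subunits past the rule in CD122+ cells, at 1.34, and 0 of 3 were in CD122- cells. None of the other chemokine receptors had 50 transcripts in either population. In CD122+ cells the medians were 0.66 for the egress, 1.45 for the residence and -0.07 for the integrin list, against 0.08 for all genes, and in CD122- cells the egress and integrin medians were 0.51 and 0.22 against 0.49.

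Markers of other cells were read from further lists. The 5 B cell markers summed to 0 to 87.1 CPM by library, except in 1 D/DCd4 library of CD122+ cells at 199 CPM. The myeloid list, with 4 of its 5 genes in the tables, ranged from 10.6 to 295 CPM and had Itgax at 0 in 9 of 10 populations. The 4 regulatory T cell markers summed to 9.22 to 170 CPM in T-bet- libraries and 0 to 22.1 CPM in T-bet+ libraries. The part of any of these cells in the results was not tested, except where a value without them is given. In the T-bet+ populations the CD4+CD8+ list summed to 67.9 to 287 CPM in TBGR and 30.02 to 60.5 CPM in fl/fl, and the naive or mature list to 1127 to 1954 and 325 to 613 CPM. The IELP list, of which 4 of 5 genes were in the tables, summed to 250.02 to 992 CPM in CD122- and 499 to 2107 CPM in the other libraries.

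Single cells were then compared after each was thinned to 2000 transcripts, so that depth did not differ. Ccr9 was seen in 69.5%, 7.53%, 8.19% and 0.680% of TBGR cells, from CD122- to T-bet high, in 38.3%, 5.74%, 2.59% and 0.893% of fl/fl cells and in 57.0% and 12.4% of D/DCd4 cells. Without thinning the TBGR shares were 86.2%, 22.0%, 12.9% and 2.72%. Cxcr3 was seen in 0 of 174 and 0 of 186 T-bet- cells, 9.36% of T-bet int and 38.8% of T-bet high cells of TBGR, and in 0, 0.820%, 4.31% and 23.2% of fl/fl cells. Without thinning the last 2 were 17.5% and 64.6% in TBGR and 15.5% and 52.7% in fl/fl. These shares ran in the order of the summed levels in both genes, except for the nearly equal values of Ccr9 in CD122+ and T-bet int cells of TBGR.

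Itga4 was seen in 12.1%, 45.2%, 53.8% and 7.48% of TBGR cells, in 11.7%, 18.9%, 22.4% and 34.8% of fl/fl cells and in 21.9% and 49.6% of D/DCd4 cells. S1pr1 was seen in 10.3%, 16.1%, 27.5% and 2.72% of TBGR cells, in 10%, 18.0%, 14.7% and 15.2% of fl/fl cells and in 5.47% and 24.8% of D/DCd4 cells. Klf2 was seen in 10.9%, 33.9%, 48.5% and 23.1%, in 14.2%, 27.9%, 37.1% and 36.6%, and in 10.2% and 39.4%. In T-bet high cells of TBGR all 3 genes were seen in fewer cells than in T-bet int cells. Without thinning, the TBGR shares were 28.7%, 76.9%, 80.7% and 13.6% for Itga4, 16.1%, 47.3%, 55.6% and 4.76% for S1pr1, and 20.1%, 65.6%, 76.6% and 40.8% for Klf2. Itgae was seen in 1.72%, 7.53%, 12.3% and 36.7% of TBGR cells and Itgb7 in 9.77%, 23.7%, 35.1% and 32.0%. Ccr7 was seen in 35.6% of CD122- cells of TBGR and in 0.680 to 7.53% elsewhere, and Cxcr4 in 4.02 to 11.7% of any population. Barcodes without a sorted cell held 0.565% as many transcripts as the kept cells, over all genes.

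Klf2 and S1pr1 were seen together in more cells than the product of their shares gives in all 10 sums of population and mouse. In CD122- cells these were 6 against 1.97 cells in TBGR, 4 against 1.70 in fl/fl and 5 against 0.711 in D/DCd4, and in T-bet high cells 13 against 6.22 in fl/fl and 1 against 0.925 in TBGR. Ccr9 and Klf2 showed the reverse in CD122- cells of 2 mice. Klf2 was seen in 6.61% of TBGR cells with Ccr9 and 20.8% of those without, in 2.74% and 20% of D/DCd4 cells, but in 13.0% and 14.9% of fl/fl cells. Klf2 and Ccr7 were seen together more often than the product in 7 of the 10 sums, with 11 against 6.77 cells in CD122- cells of TBGR. Itgae and Itgb7, the chains of 1 heterodimer, were above it in 5 sums, below it in 4 and at 0 in 1, with 21 against 17.3 cells in T-bet high and 7 against 7.37 in T-bet int cells of TBGR. Itga4 and Itgb7 were above it in 5 and below it in 5, with 33 against 32.3 cells in T-bet int cells of TBGR and 7 against 10.4 in CD122+ cells of D/DCd4. Cells of 1 population share a library and differ in state, and these counts are small, so they are given as a description.

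Finally, the genes most like each member were sought over the 10 sums of population and mouse, by Pearson's r of log2(CPM + 10), among 2927 genes with at least 100 transcripts in 1 sum. The points share libraries and mice, and no p is given. Ccr9 was most like Lztfl1 (r = 0.97) and Sox13 (0.93), and Cxcr3 most like Tbx21 (0.98) and Il18rap (0.97). Since the populations were sorted by T-bet, any gene that rises over those gates is like Tbx21 here. Ly6c2 (0.97) and Klrd1 (0.96) were nearly as close to Cxcr3. Itgae was most like Cxcr6 (0.98) and Fam189b (0.98), Itgb7 most like Arhgef3 (0.98), and Klf2 most like Cd160 (0.97) and Cetn2 (0.96). Ccr7 was most like Sipa1l1 (0.93) and Kdm6b (0.88), and Cxcr4 most like Rest (0.92) and Pcm1 (0.90). Itga4 had the least close companions, Tnfsf8 (0.82) and S1pr1 (0.78), and S1pr1 was most like Nr4a2 (0.84) and Snx4 (0.82). Lztfl1, on the minus strand of chromosome 9 at 123694416 to 123717697, lies inside the annotated span of Ccr9, on the plus strand at 123678439 to 123784330 (GRCm38, GENCODE M21). It shares 0 of the 10260 exon bases of Ccr9. The promoter of Ccr9 shown above starts at 123766961, past the end of Lztfl1, so Lztfl1 lies before the transcription start used there. Itga4 shares 1124 of its 13978 exon bases with Cerkl on the other strand. Reads were mapped in the sense direction, and whether these overlaps affected the counts was not tested.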

How the data were processed

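Single IELPs of 3 genotypes, each treated here as 1 mouse, were profiled by CEL-Seq2 in 20 libraries. The deposited values, per the paper's methods, were estimated counts of transcripts per gene and cell. The authors mapped reads with bwa (BWA 0.6.2-r126 in the submitters' notes, with bcl2fastq 2.17.1.14) in the sense direction to GENCODE VM9 transcript models of the mouse, merged isoforms and strongly overlapping loci, dropped reads with several locations, counted 6-base UMIs, and converted UMI counts to transcript counts by binomial statistics. Conversion raises high values slightly above the UMI counts, and no negative binomial model was fitted. The sources give no doublet removal, and no doublet caller was run, since cells were sorted singly into wells. The stated filters leave more cells here than the study kept.

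Values were rounded to whole transcripts. Wells without a sorted cell and cells under 2000 transcripts were left out. Transcripts were summed per library and population, which came from the sample labels and the deposited well annotation. CPM used all transcripts of the kept cells. Ratios used 0.5 added transcripts. Exact intervals (conditional binomial for ratios, Poisson for levels, binomial for shares) cover counting error only at the 95% level, and a count of 0 is bounded by 3 counts. The labels give no animal numbers, each genotype was treated as 1 mouse, and cells and libraries of 1 mouse are not replicates of a condition, so 9 comparisons were made without a test. Libraries were numbered in accession order within a mouse and population.

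All 9 members are named, as are up to 4 genes past the 2-fold rule from each of 4 lists of pathway genes, with the 2 genes most like each member, Myc, Il2rb and Tbx21. Results of 2 of these genes are not reported here. Contaminating cells were read from 8 marker lists. The members and lists were chosen with earlier results of these data known. The alternatives concerned the count filter, scaling, rounding, weighting, depth, cell filters, the fold and each library in turn. Scripts were tested on simulated data. Python 3.11.15, numpy 2.4.6, pandas 2.3.3, scipy 1.17.1 and matplotlib 3.10.9 were used.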

Additional observations from a re-analysis of the deposited data

Results flagged for a closer look

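In the fl/fl mouse 35 groups of 4 libraries were examined for 1 library far from the other 3, and 3 stood out, where chance gives about 1 in 20. Ccr7 in CD122- cells was at 6.10 CPM in library 4 and at 38.8 to 44.5 CPM in the others. Itgae in T-bet high cells was at 170.4 CPM in library 2 and at 90.7 to 100.1 CPM in the others. S1pr1 in T-bet int cells was at 12.7 CPM in library 4 and at 68.6 to 77.0 CPM in the others.

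At the step from T-bet int to T-bet high cells, Itga4 and S1pr1 had ratios of opposite sign in TBGR and fl/fl. In TBGR both T-bet high libraries were below both T-bet int libraries, and in fl/fl the ratio was above 0 within each of the 4 libraries, although S1pr1 was under the 2-fold rule there and its values overlapped between libraries. The log2 ratio in TBGR less that in fl/fl was -4.35 for Itga4 (-2.94 and 1.42) and -4.90 for S1pr1 (-4.10 and 0.80). With each genotype treated as 1 mouse, the difference was not tested.

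Barcodes to which no sorted cell was assigned held 23 transcripts of Ccr9, 16 of Itga4, 11 of Klf2, 6 of Itgb7, 5 of Itgae and 5 of S1pr1. These were 0.801%, 0.745%, 0.633%, 0.569%, 0.781% and 0.607% of the transcripts of those genes in kept cells.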

How the results depend on the processing

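No paired analysis was possible because the replicate numbers only follow accession order, and so tie no library of 1 mouse to a library of another. The 2 fl/fl comparisons within libraries were paired by library, not by number.

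Of 780 ratios of single members under the alternatives, 718 stayed within the 95% interval of the reported ratio, 62 lay outside it, and 0 changed the sign of a called ratio. The counts of members past the rule were as follows. At the CD122 step TBGR gave 5 and a 3-fold rule 3. The same step in fl/fl gave 2, no count filter 5, and thinned cells, a 3-fold rule, no pairing within libraries, and leaving out cells with Trdc or with CD4+CD8+ markers 1 each. In D/DCd4 it gave 5 and thinned cells 3. At the T-bet int step TBGR gave 2, a minimum of 100 transcripts or thinned cells 0, weighting each cell alike 4, a 1.5-fold rule 6, and leaving out cells with CD4+CD8+ markers or with Klrb1c 1 each. In fl/fl it gave 0, and a minimum of 20 transcripts or none gave 1. At the T-bet high step TBGR gave 5 and leaving out cells with Klrb1c 3. In fl/fl it gave 3, thinned cells 0, a minimum of 100 transcripts or a 3-fold rule 1 and a 1.5-fold rule 5. Between D/DCd4 and fl/fl, CD122- cells gave 0, and CPM ratios alone or no cells with Trdc 1. CD122+ cells gave 2, and thinned cells or no cells with Trdc 1. The filter on Klrb1c was chosen after the data were seen. Thinning and a higher minimum leave fewer genes tested, and the cause of the other shifts was not tested.

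Leaving out each library in turn gave 4 to 6 at the CD122 step in TBGR, 2 to 2 in fl/fl and 3 to 5 in D/DCd4, 1 to 3 at the T-bet int step in TBGR and 0 to 0 in fl/fl, 4 to 6 at the T-bet high step in TBGR and 2 to 3 in fl/fl, and 0 to 1 and 2 to 2 between the genotypes in CD122- and CD122+ cells. In TBGR Itgae was lost at the CD122 step without either CD122+ library, Cxcr4 and Itgb7 were called without library 2 of those cells, and Cxcr4 without library 2 of the CD122- cells. Depth limits Ccr7, Cxcr4, Cxcr3 and Itgae most, which had under 50 transcripts in several comparisons of the 2-week-old mice.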
